A study of Mus musculus with 8 samples.

Results

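The genes of Wnt ligands, Wnt receptors and their secreted antagonists were followed in RNA sequencing libraries of mouse myocardium. Members were taken by a rule on gene symbols that uses no measured value: the Wnt ligands, the Frizzled receptors (Fzd), the co-receptors Lrp5, Lrp6, Ror1 and Ror2, the antagonists of the Sfrp, Dkk and Wif families with Frzb, the R-spondins (Rspo) and their receptors Lgr4, Lgr5 and Lgr6, and Axin2. The rule found 47 genes of the 33249 in the gene table: 17 ligands, 10 Frizzled receptors, 4 co-receptors, 9 antagonists, 6 Rspo and Lgr genes, and Axin2.

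Wnt proteins are lipid-modified secreted signals that bind Frizzled receptors on nearby cells. With Lrp5 or Lrp6 the bound receptor stabilises beta-catenin, which enters the nucleus and acts with TCF and LEF factors, while binding with Ror1 or Ror2 signals without beta-catenin through the cytoskeleton. Sfrp proteins, Frzb and Wif1 bind Wnts outside the cell, Dickkopf proteins such as Dkk1 block Lrp5 and Lrp6, and R-spondins hold Frizzled and Lrp proteins at the surface through Lgr receptors. In the heart the pathway is known for its role in development and for coming back into use in the scar after infarction, where fibroblasts are both a source and a target.

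The 8 libraries fell into 4 groups of 2. The labels call the groups of operated controls fl/fl-Sham and CKO-Sham, and those with infarction fl/fl-MI and CKO-MI. All mice carried floxed Piezo1 alleles. CKO mice carried in addition the Myh6-MerCreMer transgene, a tamoxifen-inducible Cre driven by a cardiomyocyte promoter, and the fl/fl mice were littermates without that transgene, which the genotype tag of the labels calls WT. Per the study's methods, tamoxifen was given at 4 weeks of age at 75 mg/kg/day for 5 days, and it is not said there whether the fl/fl littermates received it. At 8 weeks of age the left anterior descending coronary artery was tied permanently (myocardial infarction, MI) or the operation was done without the tie (sham). The MI hearts were taken at day 42, and the strain and the part of the ventricle sampled were not given in the sources used here. Nothing in the labels says whether each library is 1 heart or a pool, so the spread between libraries may in part be technical.

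Library totals ran from 73821747 to 88117573 deposited counts. Libraries were compared in normalised counts (CPM, counts scaled to a common library size by TMM), and levels of different genes were compared only in FPKM, which divides by transcript length. Between sham and MI the choice of scaling matters: the median gene moved by 0.03 on the log2 scale with TMM and by 0.41 on log2(FPKM + 1). Mitochondrially encoded genes held between 43.1% and 46.4% of all counts in sham and between 19.9% and 24.2% in MI. Differences are therefore given relative to the TMM scale, and members that turned direction on the FPKM scale are named below.

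Piezo1 itself did not separate the labelled genotypes. Its level, which covers the whole gene and all cell types of the tissue, was 72.2 and 82.0 CPM under the label fl/fl-Sham, 76.7 and 88.3 in CKO-Sham, 53.5 and 64.8 in fl/fl-MI, and 56.3 and 64.6 in CKO-MI. MerCreMer contains a stretch of the oestrogen receptor gene Esr1. Esr1 was at 5.52 to 8.36 CPM in the 4 sham libraries and fl/fl-MI 1, at 331 CPM under the label fl/fl-MI 2, and at 707 and 402 CPM in CKO-MI 1 and 2. Esr1 thus goes against the label of fl/fl-MI 2, which had the raised level, and against those of both CKO-Sham libraries, which lacked it. The MI comparison in CKO sets libraries with raised Esr1 against libraries without it, and every direction between genotypes below is a direction between labels. The library labelled fl/fl-MI 2 also stood apart in its atrial genes (Bmp10, Myl4, Sln, Myl7, Nppa), whose summed level was 19857 CPM against 2547 to 4450 in the other MI libraries and 135 to 594 in sham. In those other MI libraries the sum was nearly all Nppa, at 4400 CPM in fl/fl-MI 1 and 4419 and 2520 in CKO-MI. Bmp10, Myl4, Sln and Myl7 were at 3834, 2810, 310 and 1157 CPM in fl/fl-MI 2 and at most 12.6 in any other MI library. Of the 5 genes 1 was called higher after MI. The cardiomyocyte markers of the labelled tissue were all present, with summed levels between 15624 and 32733 CPM, and no gene of any marker list was at 0 in every library.

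Of the 47 members, 26 had a mean of at least 0.5 FPKM over the 8 libraries and were tested among 14028 genes, namely 5 ligands, 7 Frizzled receptors, all 4 co-receptors, 6 antagonists, 3 Rspo and Lgr genes, and Axin2. In 6 of the 26 (Wnt5a, Wnt2b, Fzd5, Ror2, Rspo1 and Axin2) the sham mean alone was under that limit, so they passed it through the MI libraries, and counts over the 26 are descriptions of expressed members only.

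The first comparison was that of MI with sham. With both genotypes averaged, 14 of the 26 tested members rose and 1 fell at an adjusted p under 0.05 (edgeR quasi-likelihood test, Benjamini-Hochberg over all genes tested), where 22% of all tested genes rose and 18.3% fell. The median difference of the 26 members was 0.82 on the log2 scale, against 0.03 over all tested genes. Without any filter on low values, all 47 members entered, and 17 rose and 2 fell, where 10.3% and 6.77% of 33249 genes did so. In 12 of the 26 members every MI library lay above every sham library, a pattern that 20.9% of all tested genes had, and in 2 members (Fzd4 and Fzd6) every MI library lay below, where 19.5% of genes did so.

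**Figure D1:**
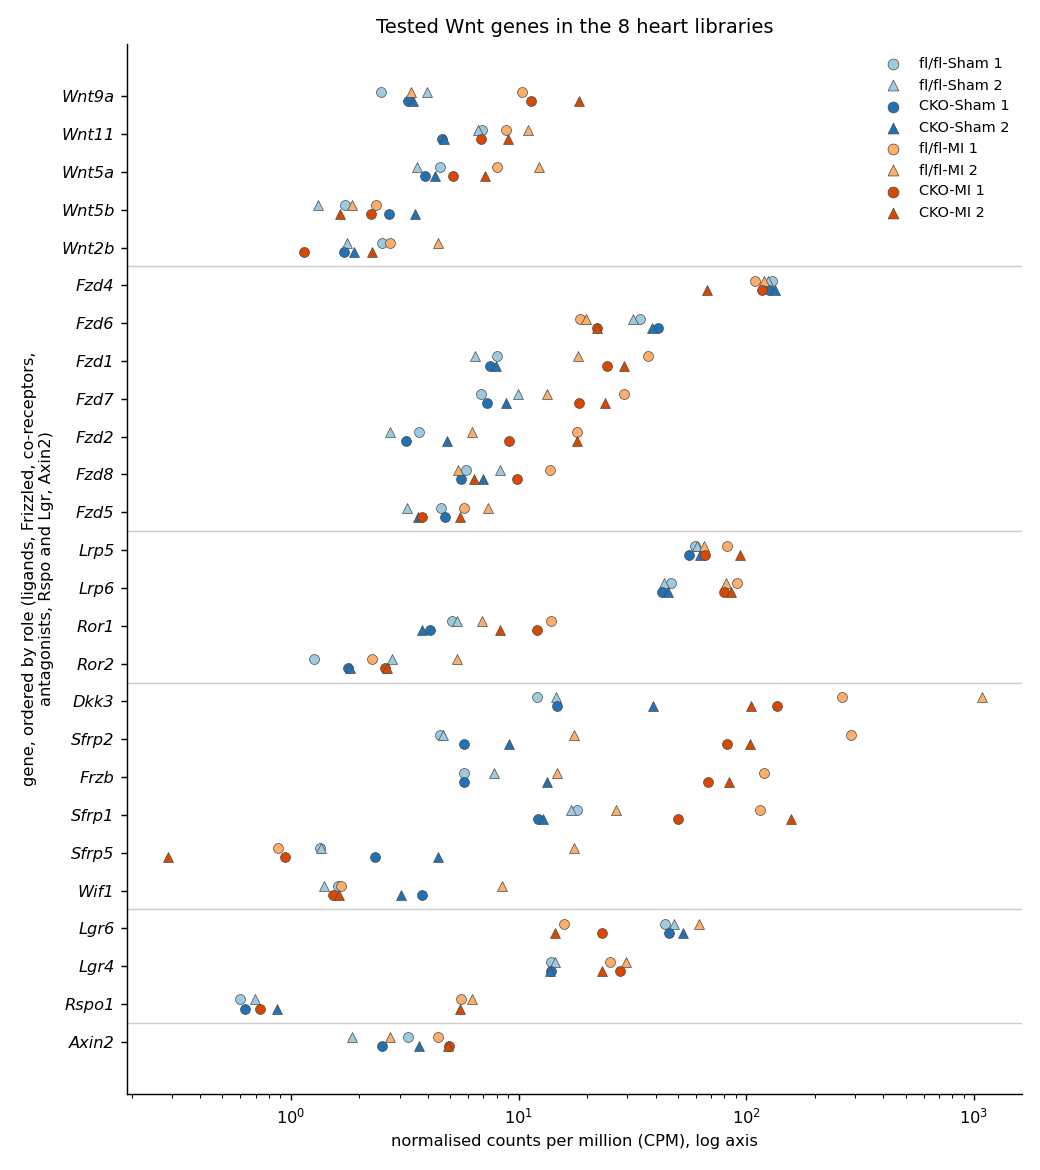
Normalised counts (CPM, log axis) of the 26 tested members in each of the 8 libraries, with blue points for sham and orange points for MI, circles for replicate 1 and triangles for replicate 2. The orange points of Dkk3, Sfrp2, Frzb and Sfrp1 lie to the right of all blue points, and those of Fzd6 to the left.

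The rises past 8-fold were those of secreted antagonists, namely Sfrp2, Dkk3 and Frzb. Sfrp2, a secreted Frizzled-related protein that binds Wnts and is made by fibroblasts, lies at chr3:83766321-83774316 (GRCm38, plus strand, ENSMUSG00000027996). It had 4.52 and 4.65 CPM in fl/fl-Sham, 5.76 and 9.11 in CKO-Sham, 288 and 17.6 in fl/fl-MI, and 82.2 and 104 in CKO-MI. All MI libraries were above all sham libraries, but those of fl/fl-MI differed more from each other than fl/fl-MI 2 did from sham. The fitted difference was 4.35 ± 0.80 (log2, SE), a 20.4-fold rise with an adjusted p of 0.0061, and without fl/fl-MI 1 it was 2.77.

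Frzb (chr2:80411970-80447625, minus strand, ENSMUSG00000027004), also known as Sfrp3 and abundant in cartilage, followed the same order of libraries. Its levels were 5.75 and 7.77 CPM in fl/fl-Sham, 5.78 and 13.4 in CKO-Sham, 120 and 14.8 in fl/fl-MI, and 67.6 and 84.2 in CKO-MI. The lowest MI library, fl/fl-MI 2, was just above the highest sham library, CKO-Sham 2, and the other MI libraries were far above. The rise was 8.89-fold (log2 3.15 ± 0.64 SE, adjusted p 0.0087) and 2.04 on the log2 scale without fl/fl-MI 1.

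Sfrp1 (chr8:23411502-23449632, plus strand, ENSMUSG00000031548), the relative of Sfrp2 with the highest sham level among the Sfrp genes, had 18.0 and 17.1 CPM in fl/fl-Sham, 12.2 and 12.8 in CKO-Sham, 114 and 26.7 in fl/fl-MI, and 50.1 and 157 in CKO-MI. Again fl/fl-MI 2 was the lowest MI library, and the groups did not overlap. The rise was 5.78-fold (log2 2.53 ± 0.52 SE, adjusted p 0.0093), and 1.81 on the log2 scale without fl/fl-MI 1.

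Dkk3, a divergent Dickkopf family member whose effect on Wnt signalling is unsettled, ran the other way among the MI libraries. It lies at chr7:112116017-112159057 (minus strand, ENSMUSG00000030772), and had 12 and 14.7 CPM in fl/fl-Sham, 14.8 and 38.9 in CKO-Sham, 264 and 1081 in fl/fl-MI, and 137 and 105 in CKO-MI. The highest value was in fl/fl-MI 2, the library with the high atrial genes, and every MI library was above every sham library. The rise was 15.1-fold (log2 3.91 ± 0.53 SE, adjusted p 0.0021), and 3.24 on the log2 scale without fl/fl-MI 2. Per length Dkk3 was the most abundant member of all, with a mean of 69.1 FPKM over the 8 libraries, followed by Sfrp2 at 36.4 and Fzd4 at 16.5.

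Sfrp5 and Wif1, the other tested antagonists, did not pass after MI with the genotypes together (0.15 ± 0.83 and 0.32 ± 0.47 log2, SE). Both were high in fl/fl-MI 2 and are described with the genotypes. Without fl/fl-MI 2 Sfrp5 was at -1.54 and passed as lower (adjusted p 0.030) and Wif1 was at -0.48, and without fl/fl-MI 1 Wif1 was at 0.67 and passed as higher (adjusted p 0.029). Of the untested antagonists Sfrp4 reached 1.29 FPKM in fl/fl-MI 1, Dkk2 reached 0.215 and Dkk1 0.067.

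The antagonists' share of the module grew, a comparison inside each library that needs no scaling between libraries. The summed FPKM of the 9 antagonists was 2.36 to 4.86 times that of the 17 ligands in sham libraries and 11.8 to 39.7 times in MI libraries, without overlap. In 3 of the MI libraries Sfrp1, Sfrp2 and Frzb together held 62.6% to 77.3% of the antagonist FPKM, but in fl/fl-MI 2 they held 5.32% and Dkk3 held 91.0%. No test is attached to these sums, since the members rather than the sum were tested.

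The fibroblast markers (Col1a1, Col1a2, Col3a1, Pdgfra, Dcn, Lum, Tcf21) were also higher after MI as a sum. Their summed level was 1339 to 1539 CPM in sham and 5613, 2112, 2801 and 4726 CPM in fl/fl-MI 1, fl/fl-MI 2, CKO-MI 1 and CKO-MI 2, and 6 of the 7 rose after MI. Among the MI libraries Sfrp2 and Frzb had the same order as this sum. Dkk3, Sfrp5 and Wif1 did not, and were highest in fl/fl-MI 2, where the sum was lowest. Markers of matrifibrocytes and cartilage (Chad, Comp, Cilp2, Sox9, Acan, Col2a1, Fmod) summed to 17.3 to 59.8 CPM in sham and 173 to 1153 in MI. Of the 5 of them tested 4 rose. The myofibroblast list (Postn, Acta2, Cthrc1, Fap) summed to 124 to 179 CPM in sham and 295 to 955 in MI, with 2 of its 4 genes higher. Postn was at 813 and 111 CPM in fl/fl-MI and at 492 and 718 in CKO-MI. Acta2 (65.8 to 126 CPM in sham, 73.6 to 181 in MI) and Fap (3.46 to 7.19 and 1.81 to 7.19) overlapped between sham and MI. The endothelial list summed to 1359 to 1585 CPM in sham and 495 to 847 in MI, with 4 of its 5 genes lower. In whole tissue, more cells of a type and more RNA per cell cannot be told apart, and the part of these lists in the rises was not tested.

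**Figure D2:**
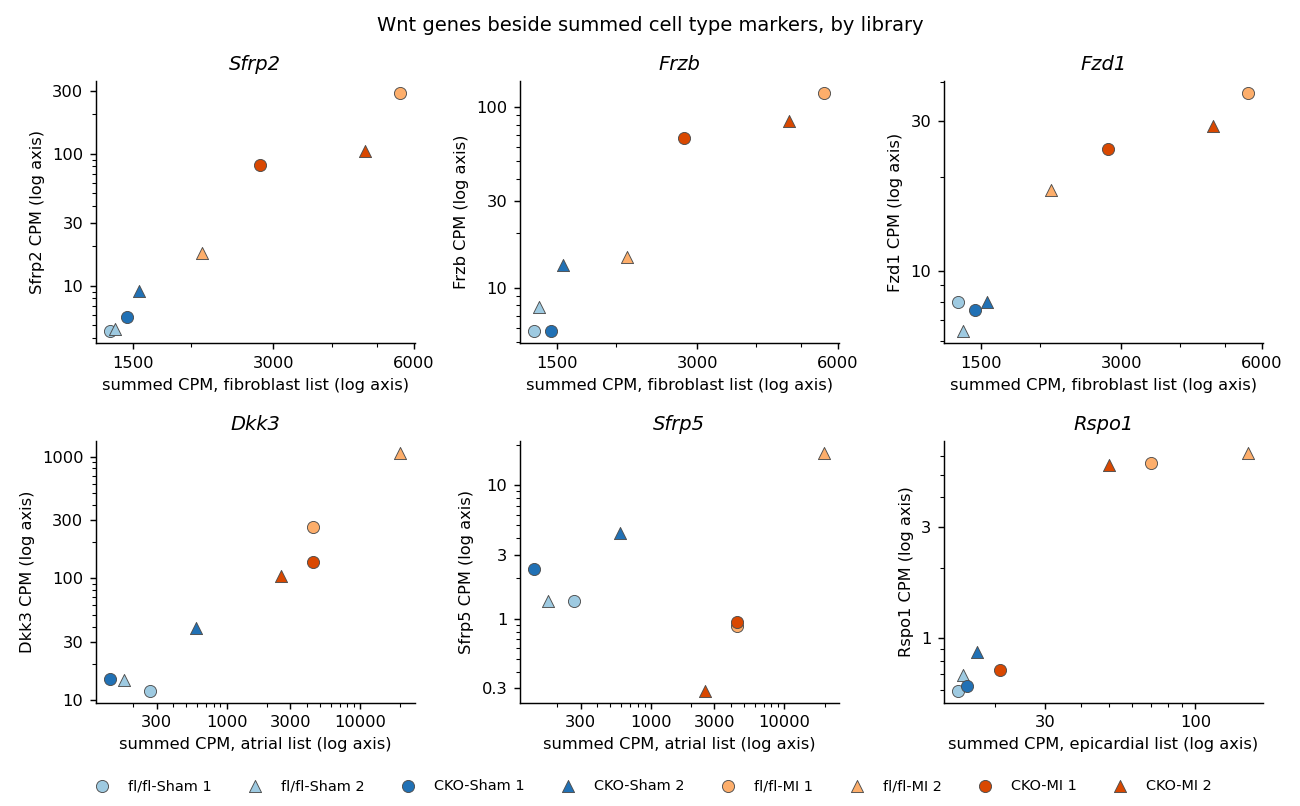
CPM of 6 members (y, log axes) against the summed CPM of a marker list (x, log axes) in the 8 libraries, with the fibroblast list for Sfrp2, Frzb and Fzd1, the atrial list for Dkk3 and Sfrp5, and the epicardial list for Rspo1. Sfrp2 reaches 288 CPM in fl/fl-MI 1, where the fibroblast sum is highest, and Sfrp5 exceeds 10 CPM only in fl/fl-MI 2, where the atrial sum is 19857.

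Among the ligands Wnt9a, Wnt11 and Wnt5a rose, and Wnt2b and Wnt5b did not pass. Wnt9a (chr11:59306928-59333552, plus strand, ENSMUSG00000000126), known for its part in joint and blood stem cell development, had the highest mean level of the ligands, 2.36 FPKM. It had 2.49 and 3.97 CPM in fl/fl-Sham, 3.26 and 3.44 in CKO-Sham, 10.4 and 3.38 in fl/fl-MI, and 11.4 and 18.4 in CKO-MI. The value in fl/fl-MI 2 lay among the sham values and the other MI libraries were above them. The rise was 3.08-fold (log2 1.62 ± 0.38 SE, adjusted p 0.015).

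Wnt11, which signals mostly without beta-catenin and shapes the outflow tract of the embryonic heart, had 6.94 and 6.63 CPM in fl/fl-Sham, 4.59 and 4.70 in CKO-Sham, 8.81 and 11 in fl/fl-MI, and 6.86 and 8.99 in CKO-MI. CKO-MI 1 lay between the fl/fl-Sham libraries, and the rise was 1.58-fold (log2 0.66 ± 0.16 SE, adjusted p 0.016). Wnt5a, the classical ligand of Ror2, had 4.52 and 3.59 CPM in fl/fl-Sham, 3.90 and 4.28 in CKO-Sham, 8.04 and 12.2 in fl/fl-MI, and 5.16 and 7.13 in CKO-MI. Here the groups did not overlap, and the rise was 1.94-fold (log2 0.96 ± 0.21 SE, adjusted p 0.011). All 3 calls were lost with a single library left out, as were those of Fzd2 and Rspo1 below. Leaving out CKO-Sham 1 took all 3 past 0.05, and the highest adjusted p with any library left out was 0.063 for Wnt9a, 0.066 for Wnt11 and 0.055 for Wnt5a. Wnt9a also lost its call without fl/fl-Sham 1, CKO-Sham 2 or CKO-MI 2, Wnt11 without fl/fl-Sham 1 or 2, CKO-Sham 2 or CKO-MI 2, and Wnt5a without fl/fl-Sham 2.

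The remaining 12 ligands were under the expression limit. The highest FPKM of any library was 0.985 for Wnt4, 0.887 for Wnt10b, 0.609 for Wnt2, 0.397 for Wnt9b and 0.397 for Wnt6. It was 0.097 or less for Wnt1, Wnt7b, Wnt7a, Wnt16, Wnt10a, Wnt3 and Wnt8b. In the fit without a filter Wnt10b and Wnt4 rose (2.14 ± 0.55 and 1.99 ± 0.55 log2, SE, adjusted p 0.016 and 0.024) and Wnt6 fell by 1.78 (adjusted p 0.033). These differences rest on few read pairs. In sham Wnt10b had 47, 9, 16 and 19 deposited counts and Wnt4 had 20, 39, 23 and 40. In MI Wnt6 had 21, 9, 15 and 41. Wnt1 was at 0 counts in every sham library and at 8, 18, 12 and 12 counts in the MI libraries. That is about the floor of 3 read pairs, a read pair being worth about 4 deposited counts, so no fold is given although its adjusted p was 0.031.

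Frizzled receptors changed in composition. Fzd1, Fzd7 and Fzd2, a closely related subfamily, rose together, Fzd6 fell, and Fzd4, Fzd5 and Fzd8 did not pass. Fzd1 (chr5:4753839-4758035, minus strand, ENSMUSG00000044674) had 8.00 and 6.44 CPM in fl/fl-Sham, 7.52 and 7.98 in CKO-Sham, 37.0 and 18.2 in fl/fl-MI, and 24.6 and 28.9 in CKO-MI. All MI libraries were above all sham libraries, for a rise of 3.63-fold (log2 1.86 ± 0.23 SE, adjusted p 0.0017).

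Fzd7 had 6.82 and 9.94 CPM in fl/fl-Sham, 7.23 and 8.80 in CKO-Sham, 29.1 and 13.4 in fl/fl-MI, and 18.4 and 23.8 in CKO-MI. Fzd2 had 3.67 and 2.72 CPM in fl/fl-Sham, 3.19 and 4.85 in CKO-Sham, 18.1 and 6.23 in fl/fl-MI, and 9.05 and 18.1 in CKO-MI. For both the groups did not overlap, fl/fl-MI 2 was the lowest MI library, and the rises were 2.58-fold (log2 1.37 ± 0.27 SE, adjusted p 0.0083) and 3.59-fold (log2 1.84 ± 0.40 SE, adjusted p 0.011). Without fl/fl-Sham 2 or CKO-Sham 1 the adjusted p of Fzd2 went to at most 0.055.

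Fzd6, a receptor of planar cell polarity, was the tested member that fell. It lies at chr15:39006034-39038188 (plus strand, ENSMUSG00000022297), and had 34.0 and 31.9 CPM in fl/fl-Sham, 40.8 and 38.3 in CKO-Sham, 18.5 and 19.8 in fl/fl-MI, and 22.2 and 22.0 in CKO-MI. It fell by 0.81 ± 0.08 on the log2 scale (SE, adjusted p 0.0010), or 1.76-fold, with the groups well apart. On the FPKM scale its difference was -0.21 with an adjusted p over 0.05, below the 0.41 by which the median gene rose there.

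Fzd4, which also serves as the receptor of norrin in endothelial cells, had the highest level of the receptors, with a mean of 16.5 FPKM. It had 130 and 125 CPM in fl/fl-Sham, 125 and 134 in CKO-Sham, 109 and 119 in fl/fl-MI, and 117 and 67.4 in CKO-MI. The difference of -0.32 ± 0.17 (log2, SE) did not pass (adjusted p 0.18). It passed without CKO-MI 1, at -0.58, and its sign turned on the FPKM scale, as did that of Wnt5b and of no other tested member. Fzd5 and Fzd8 differed by 0.45 ± 0.22 and 0.40 ± 0.32 (log2, SE) and did not pass. Of the untested receptors Fzd9 reached 1.55 FPKM in fl/fl-MI 1, Fzd3 reached 0.604 in fl/fl-MI 2, and Fzd10 reached 0.057.

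Inside each library the Frizzled FPKM moved from Fzd4 and Fzd6 towards Fzd1, Fzd2 and Fzd7. The first 2 held 78.7% to 80.8% of the summed Frizzled FPKM in sham libraries and 42.5% to 65.3% in MI libraries. Fzd1, Fzd2 and Fzd7 held 12.7% to 14.6% in sham, and 45.1%, 26.8%, 33.3% and 49.8% in fl/fl-MI 1, fl/fl-MI 2, CKO-MI 1 and CKO-MI 2. The sham libraries were thus nearly alike and the MI libraries spread widely, with fl/fl-MI 2 nearest to sham.

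**Figure D3:**
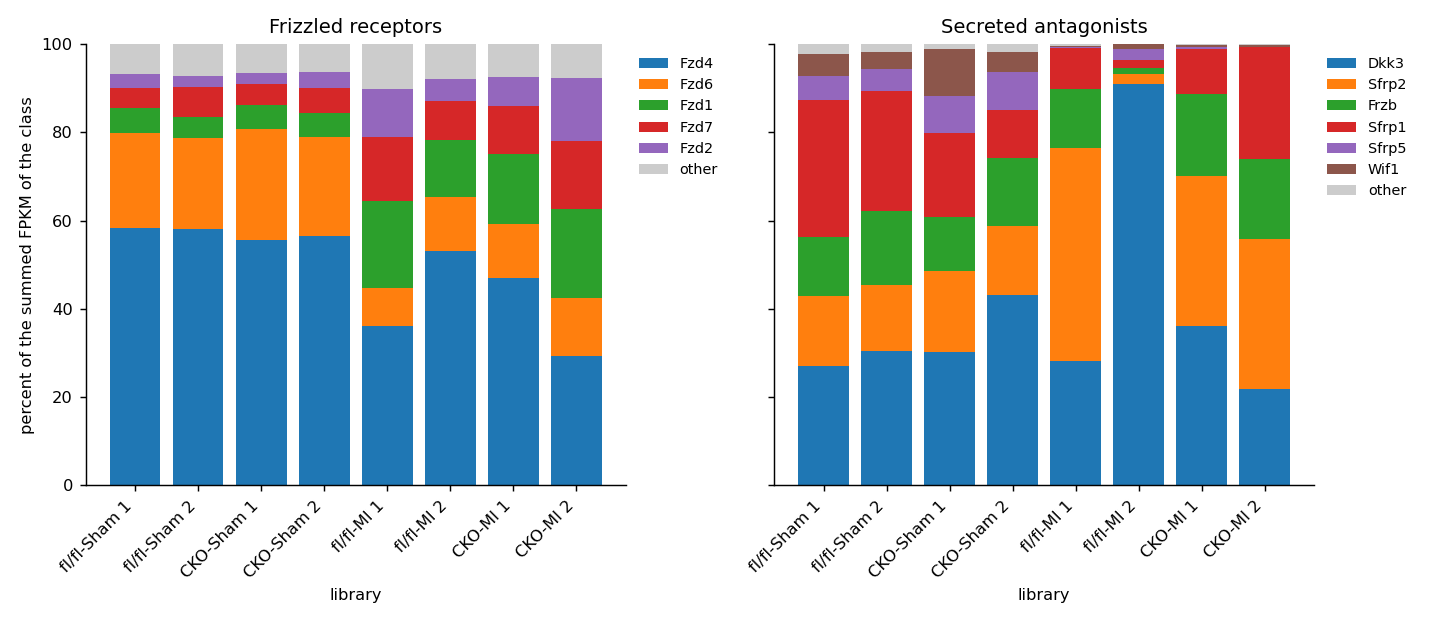
Share of the summed FPKM of the Frizzled receptors (left) and of the secreted antagonists (right) held by each gene, in percent, as stacked bars for the 8 libraries. Fzd4 and Fzd6 fill 78.7% or more of the bar in each sham library and at most 65.3% in the MI libraries, and Dkk3 fills 91.0% of the antagonist bar of fl/fl-MI 2.

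All 4 co-receptors were above 0 in difference after MI, and Lrp6 and Ror1 passed. Lrp6 (chr6:134446476-134566913, minus strand, ENSMUSG00000030201), needed for beta-catenin signalling, had 46.6 and 43.6 CPM in fl/fl-Sham, 42.7 and 45.1 in CKO-Sham, 90.6 and 81.1 in fl/fl-MI, and 79.8 and 85.7 in CKO-MI. Both groups were narrow and far apart, for a rise of 1.89-fold (log2 0.92 ± 0.09 SE, adjusted p 0.0009). Its relative Lrp5 had the higher mean level (7.14 against 4.94 FPKM) and smaller differences, with 59.7 and 60.5 CPM in fl/fl-Sham, 56.0 and 62.8 in CKO-Sham, 82.0 and 65.3 in fl/fl-MI, and 66.0 and 93.9 in CKO-MI. The MI libraries of Lrp5 were above all sham libraries, but the difference of 0.36 ± 0.14 (log2, SE) had an adjusted p of 0.084. The ratio of Lrp6 to Lrp5 FPKM was 0.51 to 0.56 in sham and 0.65 to 0.88 in MI.

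Ror1, a receptor of Wnt5a that signals without beta-catenin, had 5.12 and 5.36 CPM in fl/fl-Sham, 4.09 and 3.77 in CKO-Sham, 13.9 and 6.94 in fl/fl-MI, and 12 and 8.26 in CKO-MI. The groups did not overlap and the rise was 2.27-fold (log2 1.18 ± 0.25 SE, adjusted p 0.011). Ror2 differed by 0.73 ± 0.36 (log2, SE), with its highest value in fl/fl-MI 2, and did not pass.

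R-spondin 1 and Lgr4 rose, and Lgr6 did not pass. Rspo1 (chr4:124986430-125009099, plus strand, ENSMUSG00000028871) had 0.60 and 0.70 CPM in fl/fl-Sham, 0.63 and 0.87 in CKO-Sham, 5.61 and 6.22 in fl/fl-MI, and 0.73 and 5.51 in CKO-MI. The library labelled CKO-MI 1 stayed among the sham values while the other MI libraries were at over 5 CPM. The difference was 2.63 ± 0.59 (log2, SE, adjusted p 0.012), 1.56 without CKO-MI 2, and its adjusted p rose to at most 0.062 without fl/fl-Sham 1, fl/fl-Sham 2 or CKO-Sham 1. The epicardial list (Wt1, Upk3b, Msln, Upk1b) summed to 15.0 to 17.4 CPM in sham, 70.0 and 153 in fl/fl-MI, and 21.0 and 50.2 in CKO-MI. The sum was thus lowest among MI in CKO-MI 1, and 3 of its 4 genes were higher after MI. Wt1 did not follow Rspo1, with 10.9 to 12.9 CPM in sham, 8.64 and 30.4 in fl/fl-MI, and 10.8 and 8.35 in CKO-MI. Wnt4 was at 0.31 to 0.66 CPM in sham, at 1.38 and 2.24 CPM in the fl/fl-MI pair and at 0.45 and 3.27 CPM in the CKO-MI pair, so that it too was lowest among MI in CKO-MI 1. The macrophage list (Cd68, Adgre1, Csf1r, Lyz2) also had its lowest MI sum in CKO-MI 1. It summed to 298 to 327 CPM in sham, 823 and 587 in fl/fl-MI, and 319 and 503 in CKO-MI. The part of the epicardial and macrophage genes in these values was not tested.

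Lgr4, the broadly expressed R-spondin receptor, had 13.9 and 14.4 CPM in fl/fl-Sham, 13.8 and 13.8 in CKO-Sham, 25.3 and 29.7 in fl/fl-MI, and 27.9 and 23.3 in CKO-MI. The groups did not overlap, and its rise was 1.9-fold (log2 0.93 ± 0.11 SE, adjusted p 0.0015). Lgr6 had the highest mean level of this class, 5.15 FPKM. It had 43.8 and 48.2 CPM in fl/fl-Sham, 45.6 and 52.8 in CKO-Sham, 15.9 and 61.8 in fl/fl-MI, and 23.1 and 14.5 in CKO-MI. In 3 of the MI libraries Lgr6 was under every sham library, and in fl/fl-MI 2 it was above them. The difference with all libraries was -0.82 ± 0.39 (log2, SE, adjusted p 0.14), and it passed as lower without fl/fl-MI 2 (-1.46) and without fl/fl-MI 1 (-0.50, adjusted p 0.0499). The untested Rspo3, Rspo2 and Lgr5 reached at most 0.759, 0.222 and 0.078 FPKM.

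Axin2, a scaffold of the beta-catenin destruction complex that is itself switched on by the pathway and used as its reporter, did not pass. It had 3.27 and 1.85 CPM in fl/fl-Sham, 2.52 and 3.67 in CKO-Sham, 4.44 and 2.73 in fl/fl-MI, and 4.96 and 4.88 in CKO-MI. The groups overlapped and the difference was 0.58 ± 0.28 (log2, SE, adjusted p 0.14). It passed as higher on the FPKM scale, as did Fzd5, Lrp5 and Ror2, but there the median gene rose too. On log2(FPKM + 1) Axin2, Fzd5, Lrp5 and Ror2 differed by 0.44, 0.41, 0.79 and 0.45, where the median gene rose by 0.41. On log2(FPKM + 0.1) they differed by 0.99, 0.88, 0.90 and 1.07, where the median gene rose by 0.56.

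The promoters were searched for TCAAAG or its reverse complement CTTTGA, on both strands, since this is the core of the sites that TCF and LEF factors bind. RefSeq windows from 250 bases before to 50 bases after the start (GRCm38.p6) were at hand for 32 of the 47 members, in 35 windows, and 6 of the 35 windows (17.1%) held the core, where 16.0% of all 32851 windows did. Of the members that rose after MI, 9 had windows, and the core was in those of Frzb, Ror1 and Fzd1 and in 1 of the 2 of Wnt11. The windows of Sfrp2, Fzd7, Lgr4, Rspo1 and Wnt9a did not hold these letters, nor did that of Axin2. The 3 single-start windows with a match are shown 5′ to 3′ on the gene's strand because they belong to an antagonist, a co-receptor and a receptor that rose together, with the match in capitals.
Frzb, chr2:80447347-80447646, minus strand, match at -95 from the start: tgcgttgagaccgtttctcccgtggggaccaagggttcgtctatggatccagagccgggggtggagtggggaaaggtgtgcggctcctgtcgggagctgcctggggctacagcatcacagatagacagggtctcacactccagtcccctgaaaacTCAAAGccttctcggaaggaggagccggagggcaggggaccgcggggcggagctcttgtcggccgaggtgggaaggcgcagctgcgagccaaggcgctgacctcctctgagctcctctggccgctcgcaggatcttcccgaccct
Ror1, chr4:100095541-100095840, plus strand, match at -205: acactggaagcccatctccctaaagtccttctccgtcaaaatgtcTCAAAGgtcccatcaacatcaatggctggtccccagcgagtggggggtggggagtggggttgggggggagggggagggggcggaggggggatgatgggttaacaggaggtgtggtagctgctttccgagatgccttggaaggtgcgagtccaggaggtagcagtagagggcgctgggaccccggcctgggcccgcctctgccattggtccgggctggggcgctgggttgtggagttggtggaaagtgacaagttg
Fzd1, chr5:4758167-4758466, minus strand, match at -242: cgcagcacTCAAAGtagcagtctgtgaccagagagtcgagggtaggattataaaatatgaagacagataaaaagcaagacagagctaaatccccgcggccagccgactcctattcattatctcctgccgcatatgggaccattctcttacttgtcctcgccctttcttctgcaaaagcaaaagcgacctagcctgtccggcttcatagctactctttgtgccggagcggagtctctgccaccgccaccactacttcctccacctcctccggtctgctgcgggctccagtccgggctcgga
The matches lie at different distances from the start, and a match is a run of letters and not a measured binding site.

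The MI difference was then taken in each labelled genotype apart, 2 libraries against 2. The 2 differences have no library in common. Both take their spread and scaling from the fit of all 8 libraries, so their tests are not independent. In fl/fl, 8 tested members rose and 1 fell, where 10.1% and 8.45% of all tested genes did so. In CKO, 10 rose and 1 fell, against 12.8% and 11.9%. Frzb, Sfrp2, Fzd1, Lrp6 and Lgr4 rose and Fzd6 fell in both, Dkk3, Rspo1 and Wnt5a rose with a call in fl/fl, and Sfrp1, Wnt9a, Wnt11, Ror1 and Fzd7 with a call in CKO. For Fzd1 the differences were 1.93 ± 0.33 and 1.79 ± 0.33 (log2, SE) in fl/fl and CKO, for Lrp6 0.93 ± 0.13 and 0.91 ± 0.13, for Lgr4 0.96 ± 0.16 and 0.89 ± 0.16, and for Fzd6 -0.78 ± 0.12 and -0.84 ± 0.12. Dkk3 differed by 5.66 ± 0.81 in fl/fl and 2.17 ± 0.69 in CKO (adjusted p 0.0075 and 0.060), and by 4.31 in fl/fl without fl/fl-MI 2. The counts were fragile: members lost their calls with a single sham library of that genotype left out, and so did most of all genes called. With all libraries 15 members were under an unadjusted 0.05 in fl/fl (edgeR), where 5094 of the 14028 tested genes were. DESeq2 called 15 members there, beside 2198 genes as higher and 1840 as lower. In CKO 15 members were under an unadjusted 0.05, where 5598 genes were. DESeq2 called 16 members in CKO, beside 2409 genes as higher and 2317 as lower.

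**Figure D4:**
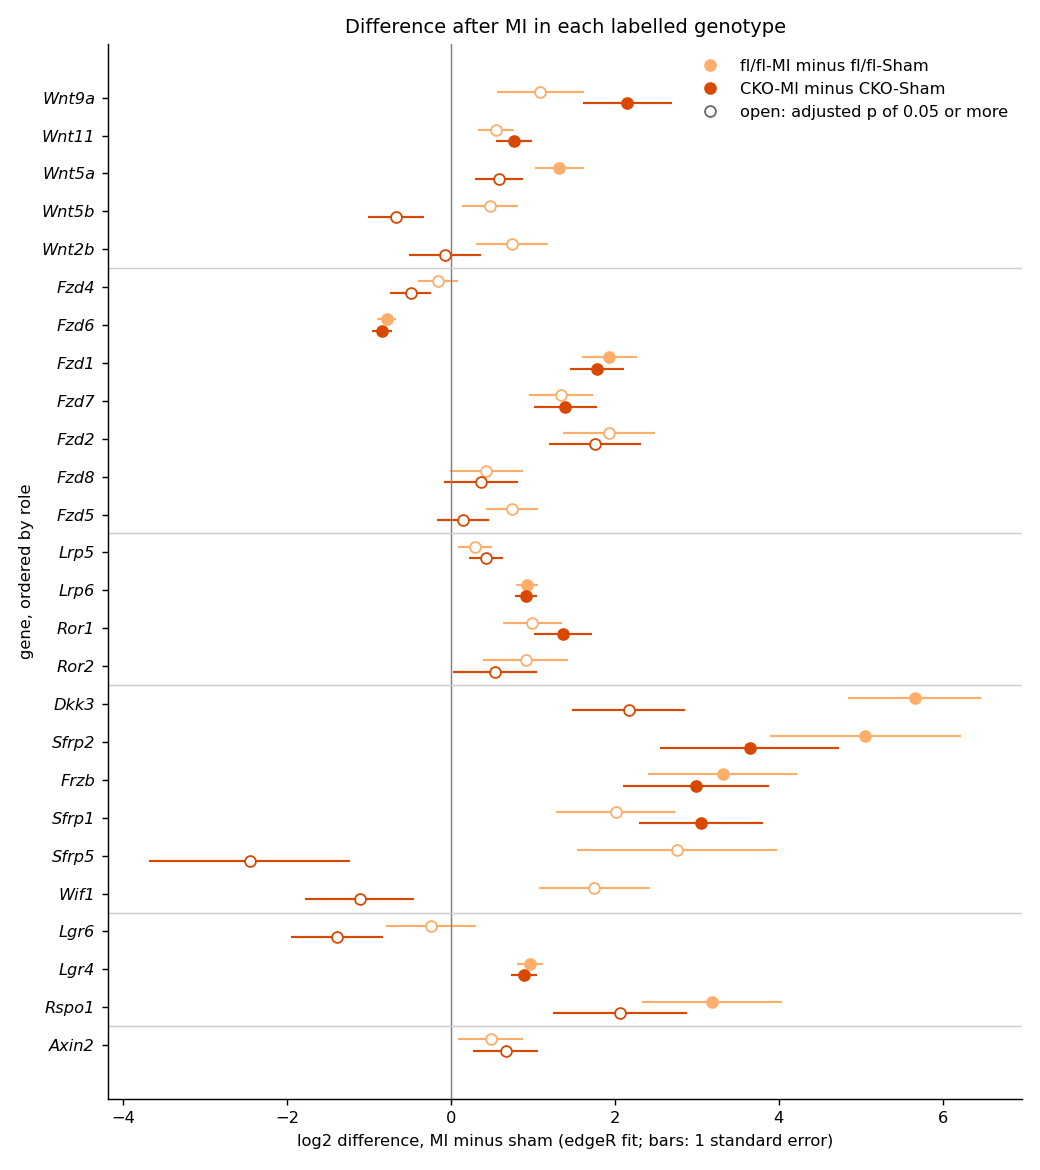
Log2 difference between MI and sham (x) for the 26 tested members, in light orange for fl/fl and dark orange for CKO, with bars of 1 standard error and open points where the adjusted p was 0.05 or more. For Fzd1, Lrp6, Lgr4 and Fzd6 the points of both genotypes lie within 1 standard error of each other, while Dkk3 is at 5.66 and 2.17.

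Between the labelled genotypes after MI, no tested gene passed an adjusted p under 0.05 in edgeR, where 1166 were under an unadjusted 0.05 and DESeq2 called 67 as higher and 140 as lower. The call used for members was therefore a p below 0.05 before adjustment together with a difference of 2-fold or more. By that rule 4 tested members were lower in CKO-MI than in fl/fl-MI and 0 were higher, where 2.72% and 0.492% of all tested genes were, and 5 members were under an unadjusted 0.05. These were Dkk3 (-2.48 ± 0.70 log2, SE, p 0.0092), Sfrp5 (-3.90 ± 1.29, p 0.019), Wif1 (-1.68 ± 0.67, p 0.041) and Wnt2b (-1.06 ± 0.44, p 0.046), and the adjusted p was 0.55 to 0.59 for all 4. Wnt5a had a p of 0.043 at -0.72 and missed the fold.

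Sfrp5, a secreted Frizzled-related protein, had 1.35 and 1.36 CPM in fl/fl-Sham, 2.34 and 4.41 in CKO-Sham, 0.88 and 17.5 in fl/fl-MI, and 0.95 and 0.29 in CKO-MI. Wif1, which binds Wnts directly, had 1.60 and 1.39 CPM in fl/fl-Sham, 3.75 and 3.06 in CKO-Sham, 1.65 and 8.44 in fl/fl-MI, and 1.52 and 1.63 in CKO-MI. Wnt2b, a ligand close to Wnt2, had 2.51 and 1.76 CPM in fl/fl-Sham, 1.70 and 1.89 in CKO-Sham, 2.73 and 4.42 in fl/fl-MI, and 1.15 and 2.27 in CKO-MI. In all 3, as in Dkk3, the library labelled fl/fl-MI 2 was the highest of the 8, and for Sfrp5 and Wif1 fl/fl-MI 1 lay close to the CKO-MI libraries.

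Without fl/fl-MI 2 the difference was -1.13 (p 0.043) for Dkk3, -0.52 (p 0.48) for Sfrp5, -0.07 (p 0.85) for Wif1 and -0.68 (p 0.20) for Wnt2b, so that Dkk3 alone of the 4 stayed past the rule. Dkk3 lost its call without CKO-MI 2. Without fl/fl-MI 1, on the other hand, Dkk3 was at -3.14, Sfrp5 at -4.82 and Wif1 at -2.40. More members passed the rule than with all libraries, and so did more of all tested genes. The fl/fl-MI group then had 1 library, so the larger number is not read as particular to the members. Sfrp2 passed as higher without fl/fl-MI 1 (2.42) and as lower without fl/fl-MI 2 (-1.63), so its direction between genotypes turned with the fl/fl-MI library that was kept. Frzb and Sfrp1 turned likewise, from 2.37 to -0.66 and from 1.97 to -0.14, and passed only without fl/fl-MI 1. The fibroblast sum was 5613 CPM in fl/fl-MI 1 and 2112 CPM in fl/fl-MI 2, on either side of the 2801 and 4726 CPM of CKO-MI. Sfrp5 also lost its call without CKO-MI 2, Wif1 without either CKO-MI library or any sham library, and Wnt2b without CKO-MI 1 or any sham library.

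**Figure D5:**
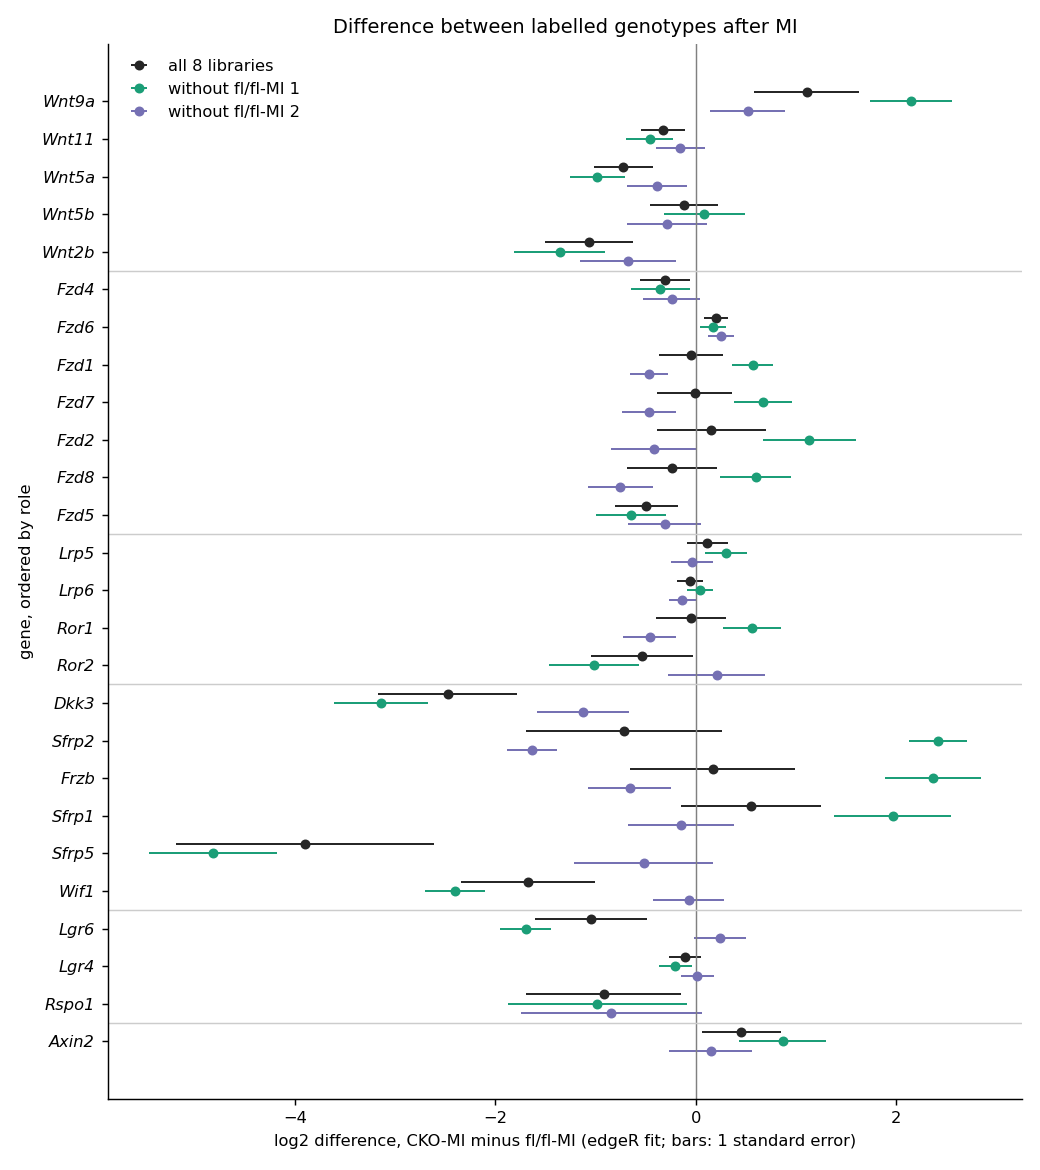
Log2 difference of CKO-MI minus fl/fl-MI by label (x) for the 26 tested members, with all 8 libraries (black), without fl/fl-MI 1 (green) and without fl/fl-MI 2 (purple), and bars of 1 standard error. Sfrp5 moves from -3.90 to -0.52 and Wif1 from -1.68 to -0.07 when fl/fl-MI 2 is left out, and Lrp6, Lgr4 and Fzd6 stay near 0 in all 3.

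In the sham hearts 1 tested member was called between the labelled genotypes, with 0.528% of all tested genes higher and 0.364% lower. Wnt5b, a relative of Wnt5a, was 2.05-fold higher in CKO-Sham (log2 1.03 ± 0.35 SE, p 0.020, adjusted p close to 1). It had 1.72 and 1.31 CPM in fl/fl-Sham, 2.70 and 3.52 in CKO-Sham, 2.37 and 1.86 in fl/fl-MI, and 2.26 and 1.64 in CKO-MI, and lost its call without fl/fl-Sham 2 or CKO-Sham 2. Dkk3, Sfrp5 and Wif1 were also higher in both CKO-Sham than in both fl/fl-Sham libraries (differences of 1.01 to 1.32 log2) without passing, and passed without fl/fl-MI 1 with a total of 4 members. Wnt11 had a p of 0.044 at -0.55 and missed the fold. The highest atrial sum of the sham libraries was in CKO-Sham 2, 594 CPM.

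The difference between the MI effects of the genotypes was tested as an interaction. By the same rule 4 members were called lower and 0 higher, where 2.93% and 1.17% of all tested genes were. None of the 14028 tested genes passed an adjusted p under 0.05 in edgeR (1191 under an unadjusted 0.05), and 1 of 33249 did with no filter. The 4 were Sfrp5, Dkk3, Wif1 and Wnt5b, and Fzd1, Lrp6, Lgr4, Fzd6 and Fzd7 had interactions between -0.15 and 0.05 on the log2 scale.

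Around the members, 65 other genes of the pathway were tested, and 31 rose and 9 fell after MI, to be read beside the 22% and 18.3% of all tested genes given above. Of 11 genes for secretion and extracellular handling of Wnts, 9 rose and 0 fell. Wls, the carrier that brings Wnts to the cell surface, rose 2.39-fold (log2 1.26 ± 0.13 SE, adjusted p 0.0009), from 32.6 to 34.8 CPM in sham to 61.9 to 109 in MI. Sulf2, which trims heparan sulphate and frees bound Wnts, rose 2.75-fold (log2 1.46 ± 0.15 SE) and had the highest mean FPKM of that list.

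Of 9 membrane partners 4 rose and 2 fell. Prickle1 of the polarity pathway fell by 1.12 ± 0.12 on the log2 scale (SE, adjusted p 0.00115), and the Wnt receptor Ryk rose by 0.55 ± 0.11. Of 24 cytoplasmic relay genes 11 rose and 3 fell. Ctnnb1, which encodes beta-catenin and was the most abundant of them, differed by 0.09 ± 0.13 and did not pass. Ctnnbip1, which keeps beta-catenin from TCF, fell by 1.23 ± 0.10 (2.35-fold). Dvl1 and Dvl2 fell as well, at -0.66 ± 0.08 and -0.97 ± 0.21. The tankyrase Tnks, which marks Axin for destruction, rose by 0.90 ± 0.10. Among the others that rose were Gsk3b, Csnk1a1, Axin1 and Dvl3, at 0.93 ± 0.11, 0.78 ± 0.11, 0.49 ± 0.11 and 0.55 ± 0.10.

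Of 13 nuclear factors 2 rose and 4 fell, and nothing particular to them is read from these counts. Pygo1 and Bcl9l, which carry beta-catenin's activity to chromatin, rose by 0.78 ± 0.13 and 0.67 ± 0.14 (log2, SE). The abundant co-repressor Tle5 fell by 0.58 ± 0.18. Tle2, Tcf7l2 and Bcl9 fell as well, at -1.20 ± 0.27, -0.69 ± 0.16 and -0.53 ± 0.15. What these changes do to the activity of the pathway was not tested. Of 12 widely used targets of beta-catenin 6 rose and 0 fell. Ccn4 rose 3.99-fold (log2 2.0 ± 0.22 SE), Ccnd2 2.71-fold (1.44 ± 0.16) and Ccn5 12.6-fold (3.66 ± 0.84), with the genotypes averaged. Ccn5, a matricellular protein, was at 7.21 to 18.7 CPM in sham and at 203, 12.4, 93.5 and 219 CPM in fl/fl-MI 1, fl/fl-MI 2, CKO-MI 1 and CKO-MI 2, so that fl/fl-MI 2 lay within the sham range, and it passed in neither genotype alone (adjusted p 0.070 in fl/fl and 0.066 in CKO). Between CKO-MI and fl/fl-MI 1 of the 65 genes passed as higher and 2 as lower, where 0.492% and 2.72% of all tested genes did.

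Transcript values added little to most of these genes, and more to Wnt9a and Wnt11. Dkk3, Sfrp1, Ror1, Fzd1, Fzd2 and Fzd7 had a single annotated transcript, and in Sfrp2, Frzb and Rspo1 the main coding transcript held at least 86.4% of the FPKM in every library. For Wnt9a nearly all FPKM went to one of 2 coding transcripts of nearly equal length. One of them held 96.7% to 100% in the MI libraries and in CKO-Sham 1 and at most 3.52% in the other sham libraries, a split that was not tested. In Wnt11 a transcript annotated for nonsense-mediated decay took 18.0% to 49.6% in MI and at most 12.5% in sham. It was at 0.46 to 2.78 FPKM in MI and 0 to 0.27 in sham. The coding transcripts of 3451, 1792 and 634 bases were at 1.22 to 1.83, 0.09 to 0.58 and 0.02 to 0.59 FPKM in MI. In sham they were at 0 to 0.96, 0.56 to 1.55 and 0 to 0.35. The rise of Wnt11 is thus not read as one of coding RNA alone, and the split was not tested. In Lrp6 the full coding transcript took 73.6% to 83.8% in MI and 60.5% to 69.5% in sham. Of the 26 tested members 9 overlap another annotated gene, among them Sfrp2, Rspo1, Wnt5a and Axin2 with an antisense gene, and since the strand setting of the counting was not given in the sources used here, reads of the 2 strands cannot be told apart there.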

How the data were processed

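Total RNA of mouse myocardium was selected with oligo(dT), and stranded libraries were sequenced as paired reads by the authors, who trimmed with cutadapt 1.9 per the labels. The aligner, the counter, the annotation and the strand setting are not given in the sources used here. Gene coordinates in the deposited table equal those of GENCODE M21 (GRCm38) for 44 of 47 members. The authors deposited gene and transcript tables with counts and FPKM values. The counts are not normalized, were used as deposited, and rise in steps of about 4 per read pair, so the totals overstate the number of sequenced read pairs. The deposited FPKM values served for filters and for levels between genes.

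Genes with a mean of at least 0.5 FPKM over the 8 libraries were fitted with edgeR 4.0.16 (R 4.3.3; TMM, quasi-likelihood, 4 group means, Benjamini-Hochberg over all 14028 genes). Standard errors are the log2 difference over the square root of F. MI comparisons were called at an adjusted p under 0.05, and genotype and interaction at an unadjusted p under 0.05 and 2-fold. An exact permutation test of 2 libraries against 2 cannot go below 0.333. The scripts were tested on simulated data. Alternatives were limma 3.58.1 on log2 FPKM with a pseudocount of 1 or 0.1, every gene kept, a minimum of 1 FPKM, RLE scaling, DESeq2 1.42.0, counts divided by 4, mitochondrial genes left out, a replicate block, the groups compared alone, and each library left out. Named with values in every library were members called in any comparison and the member of each role with the highest mean FPKM. Of each other pathway list the 2 genes with the smallest p after MI and the one with the highest mean FPKM were named. Further called genes of the relay and nuclear lists were named to give both directions. The members follow a rule on symbols alone, but the choice of this gene module and of the lists was made with earlier results of these data known. Promoter sequences are from RefSeq (GRCm38.p6). No columns of the authors' own comparisons were used.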

Additional observations from a re-analysis of the deposited data

Results flagged for a closer look

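In 4 members the MI effect differed between the labelled genotypes by an interaction term (edgeR, p below 0.05 before adjustment, 2-fold or more), and none of them passed after adjustment over all genes. The MI effect in CKO minus that in fl/fl was -5.22 ± 1.73 (log2, SE) for Sfrp5 (p 0.019, adjusted p 0.57), -3.49 ± 0.96 for Dkk3 (p 0.0084, adjusted p 0.57), -2.86 ± 0.95 for Wif1 (p 0.019, adjusted p 0.57) and -1.15 ± 0.48 for Wnt5b (p 0.048, adjusted p 0.58). Without fl/fl-MI 2 the values were -1.83 (p 0.076) for Sfrp5, -2.14 (p 0.0093) for Dkk3, -1.25 (p 0.028) for Wif1 and -1.32 (p 0.036) for Wnt5b. Over all alternatives the call of Dkk3 was lost under 0 of 18, that of Wif1 under 6 of 18, that of Sfrp5 under 7 of 18 and that of Wnt5b under 12 of 17. With any one library left out the values ran from -6.29 to -1.83 for Sfrp5, from -4.15 to -2.14 for Dkk3, from -3.59 to -1.25 for Wif1 and from -1.39 to -0.90 for Wnt5b. Wif1 lost its call without either fl/fl-Sham library, CKO-Sham 1 or either CKO-MI library, Sfrp5 without either fl/fl-Sham library, CKO-Sham 2, fl/fl-MI 2 or CKO-MI 2, and Wnt5b without any sham library, fl/fl-MI 1 or CKO-MI 2. For Sfrp5, Wif1 and Wnt5b both CKO-MI libraries lay below both CKO-Sham libraries, and for Wif1 and Wnt5b both fl/fl-MI libraries lay above both fl/fl-Sham libraries. For Dkk3 the sign was the same in both genotypes and the size differed.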

How the results depend on the processing

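Of the values of single members that were called, 640 kept their direction and side of the threshold under the alternatives, 187 kept the direction and lost the call, and 0 turned; for MI with both genotypes these were 266 and 18. With both genotypes averaged, 14 members rose and 1 fell. The number that rose was 13 to 18 under the alternatives that kept all libraries and 9 (without CKO-Sham 1) to 16 with a library left out, and the number that fell was 0 on both FPKM scales, 2 with no filter and 1 to 3 with a library left out. In fl/fl, 9 members passed, but 15 with DESeq2, 1 with the groups compared alone and 0 to 15 with a library left out. In CKO 11 passed, but 0 to 16 with a library left out. Between CKO-MI and fl/fl-MI 4 passed, but 1 and 2 on log2 FPKM with pseudocounts 1 and 0.1, 8 with no filter, 1 with the groups compared alone and 2 to 10 with a library left out. Between CKO-Sham and fl/fl-Sham 1 passed, but 0 on both FPKM scales and with a minimum of 1 FPKM, 2 with no filter, 4 with the groups compared alone and 0 to 4 with a library left out. The interaction had 4, but 1 on log2(FPKM + 1) and 1 to 8 with a library left out. Same-numbered libraries did not deviate together (r from -0.14 to 0.06 across genes), so replicate numbers were not taken as pairs. With the replicate block 14 members rose and 1 fell after MI, 6 passed in fl/fl, 6 in CKO, 2 between CKO-MI and fl/fl-MI and 2 in the interaction. With the crossed replicate block, chosen after seeing the data, these were 14, 1, 7, 8, 2 and 3. Taking MI against sham without the genotype labels, also chosen after seeing the data, gave 14 and 1. Where a library is left out, its group has 1 library, whose spread is taken from the remaining groups. The number of all tested genes that passed also changed with the library left out. The cause of these changes was not tested. Depth limits the ligands at a few read pairs, such as Wnt1, and 2 libraries a group limit the rest.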

Other observations

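The 4 MI libraries were ordered fl/fl-MI 1, CKO-MI 2, CKO-MI 1, fl/fl-MI 2 by the summed level of the fibroblast list. Of the 26 tested members 5 had exactly this order (Sfrp2, Frzb, Fzd1, Fzd2 and Fzd7), or 19.2%, where 8.36% of all 14028 tested genes had it. All 5 rose after MI, where 14 of the 26 tested members rose. How many of all tested genes with this order rose was not counted. Dkk3, Sfrp5, Wif1, Lgr6, Lgr4, Rspo1, Wnt5a, Wnt11, Wnt2b, Ror2, Fzd4 and Fzd5 instead had their highest MI value in fl/fl-MI 2, where the fibroblast sum was lowest. This was noticed in the same data it is counted on and is a description of 4 libraries. For the peak in fl/fl-MI 2 the share of all tested genes was not counted, so that peak is not read as a trait of the members.

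Among the low members Sfrp4, a further Frizzled-related protein, reached 1.29 FPKM in fl/fl-MI 1 and at most 0.256 in the other libraries. The ligand genes Wnt10b and Wnt1 lie 11706 bases apart on chromosome 15. Wnt10b had 0.142 to 0.801 CPM in sham and 0.797 to 2.39 in MI, and Wnt1 had counts in the MI libraries alone. Wnt6 had 0.43 to 1.08 CPM in sham and 0.11 to 0.42 in MI, and its neighbour Wnt10a, 6193 bases away on chromosome 1, was at 0 to 8 counts, under the floor of 3 read pairs, so that no difference could be seen there.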
